A study of Mus musculus with 27 samples.

Results

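Hox genes are the homeobox genes of the clusters HoxA, HoxB, HoxC and HoxD. All gene symbols made of Hox, a cluster letter and a number were taken from the expression tables, which gave 39 of the 24825 genes, with 11 in HoxA, 10 in HoxB, 9 in HoxC and 9 in HoxD. They were followed through the conversion of C2C12 cells, an established mouse myoblast line, towards adipocytes by retroviral NFIA, a transcription factor of the nuclear factor I family. The question asked of them here was whether the positional identity that Hox genes carry outlasts this change of lineage. Polyadenylated RNA was sequenced from 27 samples, with 3 replicates in each of 9 groups. Control cells, cells with FLAG-tagged full-length NFIA and cells with FLAG-tagged Δpro#3 mutant, which lacks the C-terminal pro#3 domain of NFIA, were each taken at day 0, at day 7 of an adipogenic cocktail, and at day 7 after 10 µM forskolin for 4 h. All groups share the C2C12 background, both constructs were delivered by the pMXs retroviral system, and all day 7 groups received the same cocktail with rosiglitazone, a PPARγ agonist. The labels name the controls only as control cells, so whether they carried an empty virus is not given. Nothing in the labels says that replicates came from separate cultures, so p-values measure only the spread between these samples, which may be technical.

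In the embryo, Hox genes give cells their address along the body axis and along the limbs. Their order on the chromosome matches their order along the axis, so that genes at the 3′ end of a cluster (low numbers) pattern the hindbrain and neck, and genes at the 5′ end (high numbers) pattern the lumbosacral trunk, the distal limb and the genital tract. Cells in culture often keep a Hox code of the place they came from, held by Polycomb and Trithorax chromatin complexes, and adipocytes from different depots differ in theirs.

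The depth was 9567769 to 27230965 fragments per sample (median 17707223), worked back from the deposited values. Expression is given as FPKM, fragments per kilobase of gene relative to the library total, which allows levels of different genes to be compared per length. Nfia itself, the gene that was introduced, was 242 ± 14.2 FPKM at day 0, 482 ± 40.1 at day 7 and 539 ± 49.9 after forskolin with full-length NFIA (mean ± SD, n = 3), and 406 ± 14.6, 413 ± 58.9 and 294 ± 43.8 with the mutant. In control cells it was 0.143 ± 0.0948 FPKM at day 7 and 0.143 ± 0.0506 after forskolin, while the control samples of day 0 read 0.879, 7.35 and 0.175, so that replicate 2 stood apart. Replicate 1 stood apart over all genes in 3 groups, the mutant at day 7 and both constructs after forskolin. Its chi-square per gene against the other replicates, a measure that also grows with depth, was 11.3 to 14.2 there, against 3.27 to 5.76 between these others and at most 6.31 in the remaining groups. All 8 muscle markers were at 1 FPKM or more in control cells at every time point, and with both constructs at day 7 and after forskolin. At day 0, 6 of them were with full-length NFIA and 7 with the mutant. The 7 adipocyte markers summed to 344 to 380 FPKM per sample in control cells, 13352 to 14841 with full-length NFIA and 613 to 2006 with the mutant at day 7. Of the 4 leukocyte markers only Cd68 reached 1 FPKM. Their sum was 2.02 to 4.45 FPKM per sample at day 0, and at day 7 it was 15.2 to 15.9 in control cells, 9.72 to 11.01 with full-length NFIA and 7.76 to 9.81 with the mutant. It was highest in control cells after forskolin (19.4 to 26.6). The endothelial and epithelial markers summed to at most 1.39 and 0.752 FPKM in any sample.

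In the NCBIM37 (mm9) assembly, HoxA lies on the minus strand of chromosome 6. HoxC lies on chromosome 15 at 102751534 to 102867274 on the plus strand. HoxB (chromosome 11, 96055630 to 96229570) and HoxD (chromosome 2, 74506367 to 74603200) are also on plus strands. Stretches of 250 bases upstream of a transcript start of 3 genes are shown because they stand for both directions described below, with Hoxa6 and Hoxa10 higher and Hoxc13 lower at day 7 with full-length NFIA. The start was that of the transcript with the longest coding sequence in GENCODE vM1. Bases were read from the mouse genome of that build, 5′ to 3′ on the strand of the gene. The windows were chr6:52158722-52158971 (minus), chr6:52184939-52185188 (minus) and chr15:102751284-102751533 (plus), and none of them overlaps an annotated exon. Those of Hoxa6 and Hoxa10 lie inside the annotated genes (52155430 to 52161355 and 52181196 to 52190853), before an internal transcript start. Capitals mark TTGGC, the half-site that NFI proteins are known to bind.
Hoxa6: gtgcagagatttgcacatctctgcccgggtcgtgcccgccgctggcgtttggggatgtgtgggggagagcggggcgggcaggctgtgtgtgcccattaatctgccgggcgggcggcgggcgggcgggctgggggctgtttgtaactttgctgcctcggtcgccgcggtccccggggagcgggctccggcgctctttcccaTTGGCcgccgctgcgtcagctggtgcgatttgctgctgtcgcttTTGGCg
Hoxa10: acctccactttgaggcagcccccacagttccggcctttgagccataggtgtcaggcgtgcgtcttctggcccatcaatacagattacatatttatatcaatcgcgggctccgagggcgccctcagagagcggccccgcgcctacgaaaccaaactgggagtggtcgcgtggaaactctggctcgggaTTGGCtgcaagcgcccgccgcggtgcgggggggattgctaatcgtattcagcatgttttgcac
Hoxc13: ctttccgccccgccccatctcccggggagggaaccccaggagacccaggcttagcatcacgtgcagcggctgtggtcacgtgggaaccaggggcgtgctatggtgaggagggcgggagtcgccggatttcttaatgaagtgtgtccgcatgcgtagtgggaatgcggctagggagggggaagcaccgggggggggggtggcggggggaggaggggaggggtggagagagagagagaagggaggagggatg

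The half-site was found at 50 and 6 bases before the transcript start used for Hoxa6 and at 63 bases before that used for Hoxa10. It was absent from the window of Hoxc13. Over both strands, TTGGC was in the windows of 6 of 11 HoxA genes, 7 of 10 HoxB genes, 3 of 9 HoxC genes and 5 of 9 HoxD genes. Of all 22233 protein-coding genes, 41.9% had it. The full palindrome, TTGGC and GCCAA with 5 bases between them, which contains the half-site on both strands, was in none of the 39 Hox windows and in 7 windows of all genes (0.0315%). Hoxa3, Hoxa5 and Hoxa9, also higher at day 7 with full-length NFIA, have no half-site, and Hoxc9, which was lower, has 1. These matches are a description of letters in a window and not of binding. The HoxA windows had a median of 23 CpG dinucleotides and 64.8% GC, the HoxC windows 13 and 56.0%, and all genes 9 and 54.8%.

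Only HoxA and HoxC genes were expressed, and this was so in every group. Taking a mean of 1 FPKM or more in at least 1 group as expressed, all 11 HoxA and all 9 HoxC genes passed and no HoxB or HoxD gene did. The 10 HoxB genes together held 126 and the 9 HoxD genes 7 of 505672291 fragments over the 27 samples. Hoxb1, Hoxb2, Hoxd3, Hoxd4, Hoxd8, Hoxd10 and Hoxd12 had no fragment in any sample. For a gene without a fragment in a group, 3 fragments over the 3 samples are the limit that a count of 0 allows, which was 0.0134 to 0.0443 FPKM for these genes. This limit covers counting error only, and it may be too low for Hoxd3 and Hoxd4, which share 1725 exon bases. The most abundant HoxB gene was Hoxb4, a regulator of blood stem cell expansion, with 71 fragments and a highest group mean of 0.112 FPKM, in mutant cells after forskolin. Hoxb13, a gene of the prostate and tail bud, had 15 fragments, and its highest group mean was 0.124 FPKM, with full-length NFIA at day 0. The number of Hox genes at 1 FPKM or more was 15 in control cells, 18 with full-length NFIA and 17 with the mutant at day 0. At day 7 these numbers were 15, 17 and 15, and after forskolin 13, 15 and 13.

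**Figure D1:**
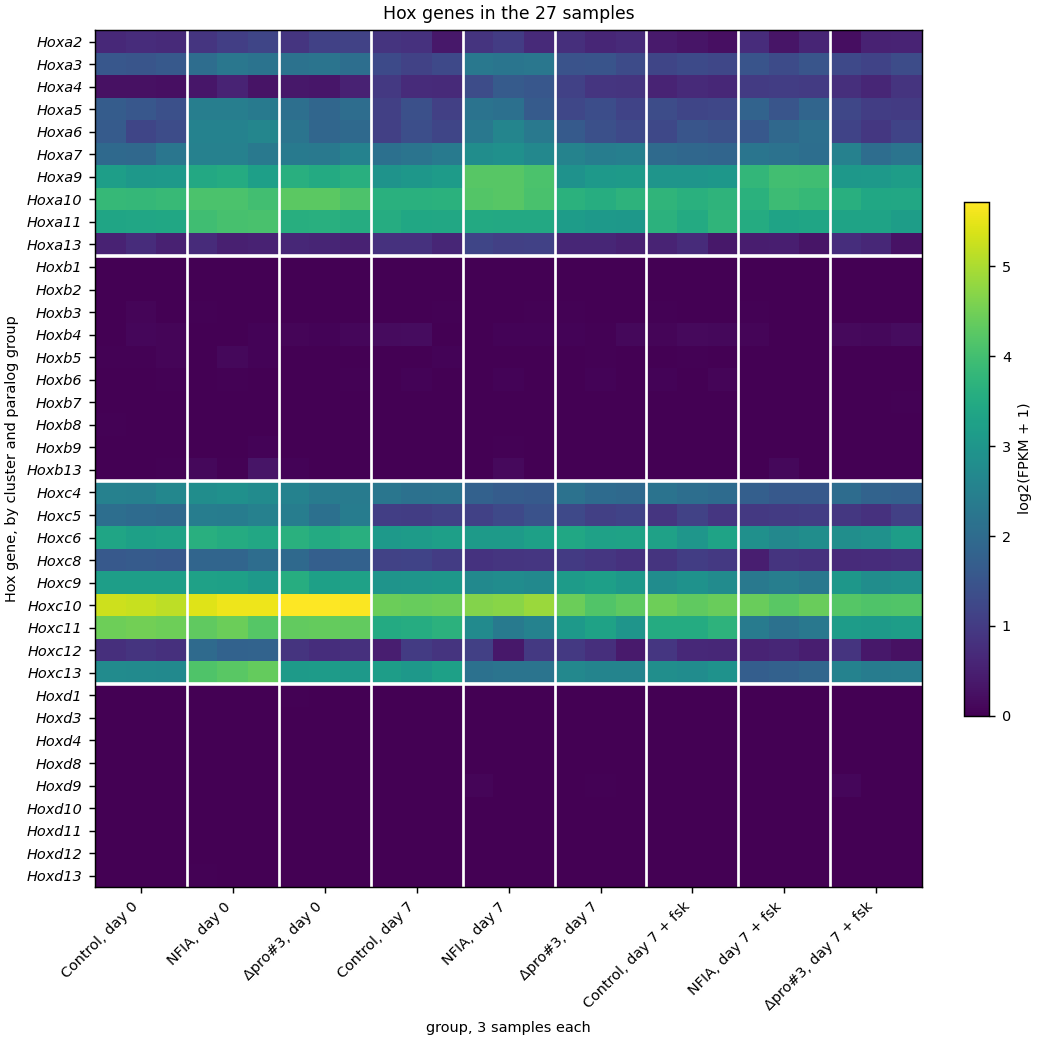
Expression of Hox genes (rows, by cluster and number) in the 27 samples (columns, 3 per group) as colour on the log2(FPKM + 1) scale; white lines separate clusters and groups. The HoxB and HoxD genes stay dark in all 9 groups, and Hoxc10 is the brightest row in each.

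Within the active clusters the signal lay towards the 5′ end. Hoxc10, which specifies lumbar motor neurons and hindlimb, had the highest mean in all 9 groups, from 17.04 FPKM in mutant cells after forskolin to 51.2 in mutant cells at day 0. Genes of groups 9 to 13 made up 69.8% to 78.8% of the summed Hox FPKM in each of the 27 samples, and groups 1 to 3 made up 1.96% to 6.75%. The summed Hox FPKM per sample ran from 80.2 to 183.75. Hoxc13, a gene of hair and nail formation, varied most among the HoxC genes, with group means from 2.47 to 18.1 FPKM, a 7.31-fold range. Among the HoxA genes Hoxa4, a cervical patterning gene, had the widest range, 9.95-fold, from 0.186 to 1.85 FPKM, and Hoxa10, a gene of lumbar vertebrae and uterus, the narrowest, 1.74-fold.

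The share of the HoxA cluster in the Hox signal differed between the groups. HoxA genes gave 30.98% ± 0.707 (SD, n = 3) of the summed Hox FPKM in control cells at day 0, 34.5% ± 0.67 with full-length NFIA and 33.8% ± 0.148 with the mutant. At day 7 the share was 39.1% ± 0.67 in control cells, 56.1% ± 2.59 with full-length NFIA and 41.8% ± 1.05 with the mutant, and after forskolin 40.7% ± 0.164, 55.6% ± 1.85 and 43.2% ± 0.848. The 3 samples with full-length NFIA at day 7 lay at 53.3% to 58.3%, above all control samples (38.3% to 39.6%) and mutant samples (40.7% to 42.8%). The share of groups 9 to 13 at day 7 was 76.5% ± 0.661 in control cells, 71.1% ± 1.14 with full-length NFIA and 71.7% ± 0.728 with the mutant. These are shares of one sum, given without a test.

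**Figure D2:**
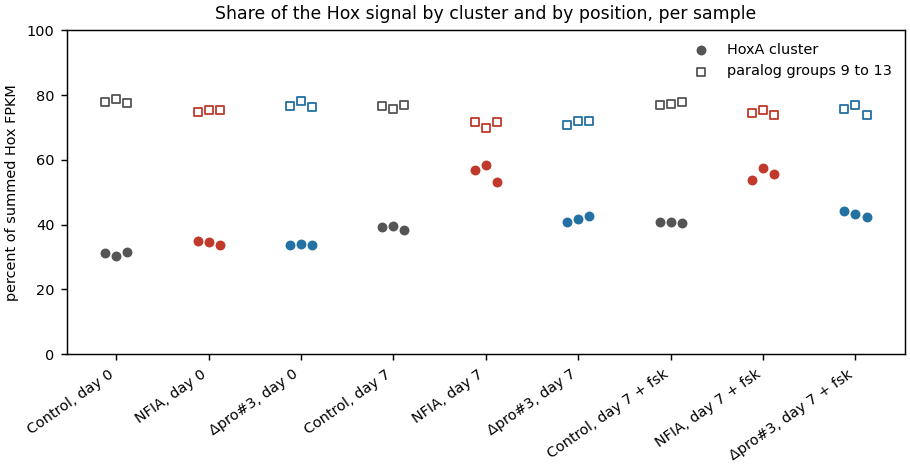
Percent of the summed Hox FPKM (vertical axis) held by the HoxA cluster (filled circles) and by groups 9 to 13 of both clusters (open squares) in each sample of the 9 groups; grey is control, red full-length NFIA and blue the Δpro#3 mutant. The HoxA share of full-length NFIA samples at day 7 (53.3% to 58.3%) stands above all control samples of that day, while the squares stay between 69.8% and 78.8%.

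The profile of the 20 expressed genes was compared between groups. Hoxa4, Hoxa13 and Hoxc12 are among the 20 only through groups with full-length NFIA. Over the 20 genes, Pearson's r of the group means of log2(FPKM + 1) between control and full-length NFIA cells was 0.952 at day 0, 0.848 at day 7 and 0.905 after forskolin. For the mutant it was 0.988, 0.981 and 0.986. Over the 12360 other genes with a mean of 0.5 FPKM or more, r between control and full-length NFIA cells was 0.910 at day 0 and 0.864 at day 7. Between day 0 and day 7, r over the Hox genes was 0.960 in control cells, 0.783 with full-length NFIA and 0.947 with the mutant, and over the other genes 0.882, 0.828 and 0.865. Over all 39 Hox genes, the added ones under 1 FPKM in every group, r was 0.983, 0.930 and 0.980. Over the 20 expressed genes, single samples of 1 group gave 0.979 to 0.997 and samples of different groups 0.721 to 0.994. The genes share each sample's library and are not independent replicates, so these values are a description.

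At day 0, before the adipogenic cocktail, 17 of the 19 Hox genes tested differed between full-length NFIA and control cells, and 16 of the 17 were higher. In the same comparison 73.3% of all 12105 genes passed the test (37.7% higher, 35.6% lower). The test was limma on log2(FPKM + 1) over all genes with a mean of 0.5 FPKM or more, and a gene passed at an adjusted p-value under 0.05 (Benjamini-Hochberg). The median log2 fold change was 0.36 over the Hox genes and 0.0083 over all genes. No Hox gene passed and changed by more than 3-fold in FPKM + 1, against 5.24% of all genes, and 2 did with a pseudocount of 0.1 and 3 with voom on fragments. Fold changes are on the log2(FPKM + 1) scale, which understates those of low genes. Without control replicate 2, the sample with more Nfia, 16 Hox genes passed. The markers of other cell types had moved as well at day 0. The muscle markers summed to 1088 to 1113 FPKM per sample in control cells, 136 to 144 with full-length NFIA and 402 to 409 with the mutant. The adipocyte markers summed to 40.05 to 48.5 FPKM in control cells, 432 to 459 with full-length NFIA and 318 to 335 with the mutant. Only 3 of these 7 were at 1 FPKM or more in control cells, and 4 with either construct. With full-length NFIA, Fabp4 was 10.9 ± 1.02, Plin1 0.820 ± 0.0991 and Cidec 0.0154 ± 0.0266 FPKM, so other members made up most of the sum. The part of the muscle and adipocyte markers in the Hox values was not tested.

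Among the 3′ HoxA genes, Hoxa2, a gene of the hindbrain and the branchial arches, was 0.570, 0.662 and 0.604 FPKM in control samples, 0.857, 1.09 and 1.29 with full-length NFIA and 0.849, 1.15 and 1.195 with the mutant. It rose with both constructs, with log2 fold changes of 0.36 ± 0.091 (SE, adjusted p = 0.00411) and 0.35 ± 0.091 (adjusted p = 0.00639, limma) against control, and the samples of both constructs overlapped. Hoxa3, required for thymus and parathyroid, was 1.92, 1.85 and 2.03 FPKM in control samples, 3.11, 3.83 and 3.51 with full-length NFIA and 3.43, 3.63 and 3.19 with the mutant. It rose by 0.61 ± 0.066 and 0.59 ± 0.066, and the difference between both constructs was -0.021 (95% interval -0.17 to 0.13, not adjusted, as for all intervals given). Hoxa4 read 0.192, 0.192 and 0.175 FPKM in control, 0.280, 0.491 and 0.230 in full-length NFIA and 0.298, 0.265 and 0.453 in mutant samples, below the level for testing at day 0.

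In the middle of HoxA, Hoxa5, a gene of lung and cervicothoracic development, was 2.18, 1.94 and 1.65 FPKM in control samples, 4.47, 4.43 and 4.05 with full-length NFIA and 3.26, 2.69 and 3.14 with the mutant. The 3 groups did not overlap, at 0.87 ± 0.077 and 0.46 ± 0.077 against control. Hoxa6, its neighbour, had 2.13, 1.3003 and 1.52 FPKM in control samples, 4.77, 4.85 and 5.21 with full-length NFIA and 3.57, 2.71 and 2.86 with the mutant, again without overlap. Its log2 fold change of 1.18 ± 0.11 (adjusted p = 2.71e-06, limma) was the largest of HoxA at day 0, and the mutant reached 0.62 ± 0.11. Hoxa7, a thoracic gene, was 2.85, 2.84 and 3.71 FPKM in control samples, 4.72, 4.69 and 3.98 with full-length NFIA and 4.14, 3.98 and 4.76 with the mutant. It rose by 0.41 ± 0.092 and 0.36 ± 0.092, and both constructs overlapped.

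At the 5′ end of HoxA, Hoxa9, a regulator of blood stem cells and a leukemia gene, was 8.28, 7.27 and 7.58 FPKM in control samples, 10.02, 10.4 and 8.31 with full-length NFIA and 11.2, 10.4 and 11.3 with the mutant. Both constructs lay above control, at 0.28 ± 0.075 and 0.46 ± 0.075. Hoxa10 was 13.3, 12.96 and 13.4 FPKM in control samples, 16.2, 16.1 and 15.01 with full-length NFIA and 18.3, 18.4 and 16.4 with the mutant. Here the mutant exceeded full-length NFIA by 0.16 ± 0.047 (adjusted p = 0.0129, limma), a call lost without mutant replicate 1 or 2 (adjusted p = 0.0539 in both fits). Hoxa11, which patterns the forearm and lower leg, was 9.32, 9.39 and 9.65 FPKM in control samples, 14.6, 15.5 and 15.8 with full-length NFIA and 11.1, 11.2 and 10.7 with the mutant. It rose by 0.64 ± 0.037 and 0.20 ± 0.037, with full-length samples above all others. Hoxa13, needed for digits, was 0.452, 0.646 and 0.440 FPKM in control samples, 0.627, 0.424 and 0.473 with full-length NFIA and 0.559, 0.498 and 0.472 with the mutant, and the groups overlapped (interval of the difference with full-length NFIA -0.18 to 0.17).

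In HoxC, the 3′ gene Hoxc4 was 4.698, 4.65 and 5.26 FPKM in control samples, 5.94, 6.295 and 5.79 with full-length NFIA and 4.76, 4.25 and 4.22 with the mutant. Full-length NFIA raised it by 0.26 ± 0.058, while the mutant value of -0.12 ± 0.058 did not pass (adjusted p = 0.101, limma; 0.000189 for the difference between both constructs). Without mutant replicate 1 the fall with the mutant passed (adjusted p = 0.0386). Hoxc5 was 3.17, 3.03 and 2.91 FPKM in control samples, 4.37, 4.28 and 4.69 with full-length NFIA and 4.35, 3.34 and 4.25 with the mutant, and rose by 0.43 ± 0.076 and 0.30 ± 0.076. Hoxc6, a thoracic gene, was 9.29, 8.56 and 8.83 FPKM in control samples, 11.2, 10.6 and 9.76 with full-length NFIA and 11.4, 10.3 and 11.2 with the mutant, with rises of 0.22 ± 0.054 and 0.27 ± 0.054 and no overlap with control. Hoxc8, which acts in brachial motor neurons and ribs, was 2.05, 2.11 and 2.02 FPKM in control samples, 2.67, 2.63 and 3.13 with full-length NFIA and 2.87, 2.32 and 2.44 with the mutant. It passed with both (0.31 ± 0.071 and 0.21 ± 0.071), but the mutant call was lost without control replicate 1, control replicate 3 or mutant replicate 1 (adjusted p of 0.0585, 0.0657 and 0.10).

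Hoxc9, which sets thoracic motor columns, was 8.19, 8.29 and 8.25 FPKM in control samples, 8.72, 8.46 and 7.603 with full-length NFIA and 10.8, 8.52 and 8.68 with the mutant. Neither construct passed against control, with intervals of -0.17 to 0.17 and -0.017 to 0.33. Hoxc10 was 38.01, 36.7 and 34.8 FPKM in control samples, 42.6, 46.4 and 46.7 with full-length NFIA and 51.1, 51.8 and 50.8 with the mutant, and the 3 groups did not overlap. Its log2 fold change of 0.48 ± 0.042 with the mutant was above the 0.30 ± 0.042 with full-length NFIA (adjusted p = 0.00368 for the difference, limma). Hoxc11, a hindlimb gene, was 20.9, 21.6 and 21.1 FPKM in control samples, 18.98, 20.7 and 17.5 with full-length NFIA and 19.4, 19.7 and 19.3 with the mutant. It was the 1 Hox gene that fell with full-length NFIA at day 0, by -0.15 ± 0.050 (adjusted p = 0.0205), and the call was lost without control replicate 2 or full-length replicate 3 (0.0619 and 0.0556) and with voom on fragments (0.062).

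At the 5′ end of HoxC, Hoxc12 was 0.7001, 0.828 and 0.727 FPKM in control samples, 2.96, 2.49 and 2.51 with full-length NFIA and 0.812, 0.675 and 0.732 with the mutant. Full-length samples stood apart, at 1.06 ± 0.067 (adjusted p = 1.04e-07, limma), and mutant samples overlapped control (-0.16 to 0.14). Hoxc13 was 5.79, 5.69 and 5.53 FPKM in control samples, 16.6, 18.1 and 19.6 with full-length NFIA and 7.64, 7.82 and 7.53 with the mutant. The log2 fold change was 1.51 ± 0.052 with full-length NFIA (adjusted p = 6.41e-10), the largest of the 19, and 0.38 ± 0.052 with the mutant.

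With the mutant at day 0, 14 of 19 Hox genes passed against control and all 14 were higher (62.2% of all genes passed, 32.5% higher and 29.7% lower). In a fit of only the groups compared Hoxc11 passed as lower (adjusted p = 0.0047, limma), and without mutant replicate 1 Hoxc4 did (0.0386), while Hoxc8 was lost without control replicate 1 or 3 or mutant replicate 1 (up to 0.1). The median was 0.34 over the Hox genes and 0.0095 over all genes. Against full-length NFIA, 9 Hox genes differed, 2 higher and 7 lower (65.3% of all genes passed, 33.4% higher and 31.9% lower). The 7 included Hoxa5, Hoxa6, Hoxa11, Hoxc4, Hoxc12 and Hoxc13, with Hoxc13 at -1.14 ± 0.052 and Hoxc12 at -1.07 ± 0.067. Hoxa10 and Hoxc10 were higher with the mutant. When 1 sample was left out, Hoxa9 also passed as higher in 2 of 6 fits (adjusted p of 0.0229 and 0.0495, limma) and Hoxc9 in 1 (0.0485).

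**Figure D3:**
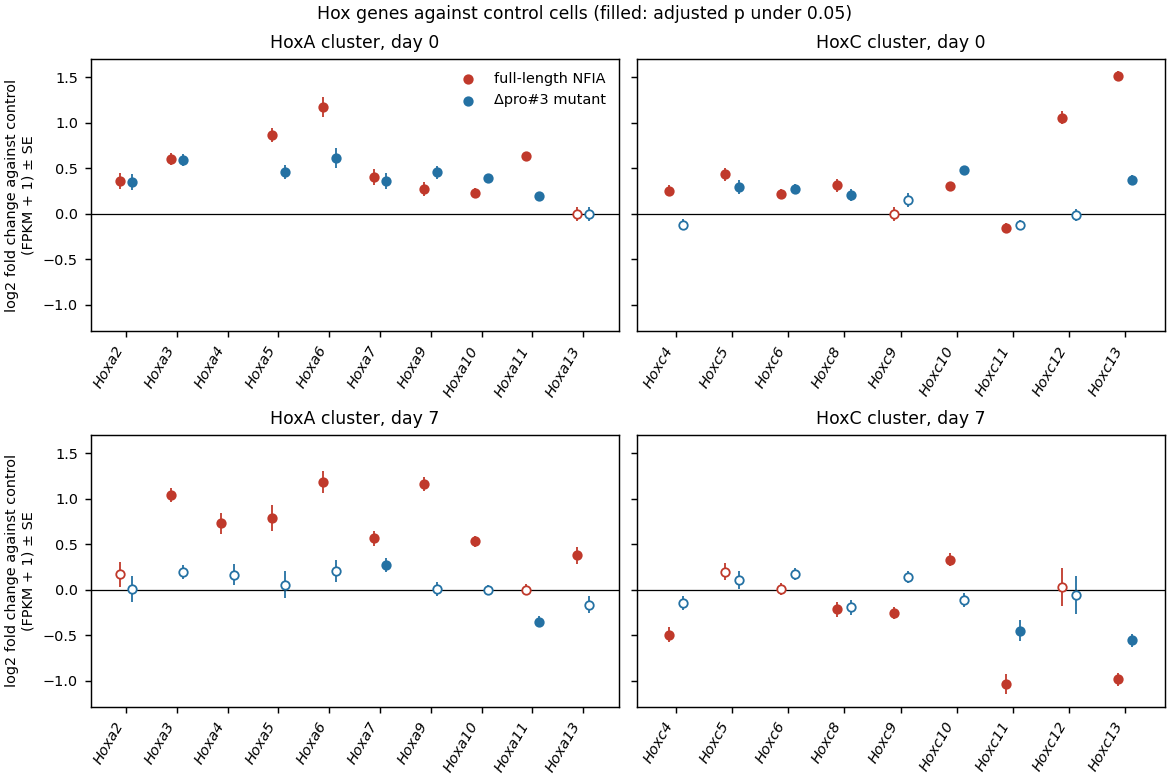
Log2 fold change (FPKM + 1, ± SE from the limma fit) of expressed Hox genes, in chromosomal order, for full-length NFIA (red) and the Δpro#3 mutant (blue) against control cells, at day 0 (top) and day 7 (bottom) in HoxA (left) and HoxC (right); filled points passed at an adjusted p under 0.05. No HoxA gene passed as lower with full-length NFIA on either day, and red Hoxc13 goes from 1.51 at day 0 to -0.99 at day 7.

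Of 20 Hox genes tested between full-length NFIA and control cells at day 7, 15 passed, 10 higher and 5 lower (72.4% of all 12324 genes passed, 31.3% higher and 41.1% lower). In HoxA 9 of 11 genes were higher and none passed as lower, while in HoxC 1 of 9 was higher and 5 were lower (2 and 4 with median-ratio scaling). The clusters were not tested against each other. The median was 0.26 over the Hox genes and -0.080 over all genes. No Hox gene exceeded 3-fold in FPKM + 1 (8.17% of all genes did), and 2 did with a pseudocount of 0.1 or with voom on fragments. In bulk RNA, fewer cells that express a gene cannot be told apart from less of its RNA per cell, and at day 7 the muscle markers summed to 1198 to 1627 FPKM per sample with full-length NFIA against 5935 to 6952 in control cells.

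At day 7 Hoxa2 was 0.814, 0.770 and 0.288 FPKM in control samples, 0.824, 1.01 and 0.592 with full-length NFIA and 0.697, 0.539 and 0.605 with the mutant, and the groups overlapped. Hoxa3 was 1.42, 1.19 and 1.41 FPKM in control samples, 3.905, 3.704 and 3.79 with full-length NFIA and 1.74, 1.79 and 1.49 with the mutant. All full-length samples lay above the others, with a log2 fold change of 1.04 ± 0.077 (adjusted p = 8.04e-07, limma). The mutant samples lay above control as well, but the mutant value of 0.19 ± 0.077 did not pass (adjusted p = 0.0641, limma). It passed without mutant replicate 3 (0.0392), with median-ratio scaling (0.0351) and without the variance trend (0.0368). Hoxa4 was 0.942, 0.620 and 0.612 FPKM in control samples, 1.4999, 2.12 and 1.94 with full-length NFIA and 1.15, 0.832 and 0.810 with the mutant. It rose with full-length NFIA by 0.73 ± 0.12, and the mutant overlapped control (-0.10 to 0.43).

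Hoxa5 was 1.12, 1.61 and 1.14 FPKM in control samples, 3.51, 3.34 and 2.099 with full-length NFIA and 1.32, 1.55 and 1.23 with the mutant. Full-length NFIA raised it by 0.79 ± 0.15, with 1 sample of 2.10 close to the controls, and the mutant overlapped control (-0.27 to 0.38). Hoxa6 was 1.13, 1.59 and 1.28 FPKM in control samples, 3.93, 5.05 and 3.95 with full-length NFIA and 2.09, 1.61 and 1.39 with the mutant. This gene rose by 1.18 ± 0.12, as at day 0 on this scale, where it was 1.18, and the mutant value was 0.21 ± 0.12 (-0.070 to 0.48). Hoxa7 was 3.297, 3.62 and 4.02 FPKM in control samples, 5.99998, 6.27 and 5.34 with full-length NFIA and 4.85, 4.39 and 4.54 with the mutant, with rises of 0.56 ± 0.081 and 0.27 ± 0.081 and 3 groups that did not overlap. The mutant call on Hoxa7 was lost without control replicate 1 or 2 or mutant replicate 1 (adjusted p of 0.0797, 0.051 and 0.0574).

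Hoxa9 was 6.67, 7.103 and 7.85 FPKM in control samples, 17.8, 17.9 and 16.2 with full-length NFIA and 6.57, 7.52 and 7.66 with the mutant. Full-length samples were above both other groups, at 1.16 ± 0.077 (adjusted p = 3.5e-07, limma), and the mutant differed from control by 0.0080 (-0.16 to 0.18). With full-length NFIA it was the second most abundant Hox gene, against the seventh in control cells. Hoxa10 was 11.5, 11.4 and 11.6 FPKM in control samples, 17.3, 17.9 and 15.9 with full-length NFIA and 11.6, 10.8 and 11.99 with the mutant, which gave 0.53 ± 0.060 and -0.0048 (-0.14 to 0.13). Hoxa11 was 10.7, 9.64 and 9.73 FPKM in control samples, 10.1, 9.91 and 9.91 with full-length NFIA and 7.96, 7.61 and 7.28 with the mutant. It did not differ detectably with full-length NFIA (-0.13 to 0.13), and mutant samples were lower than both (-0.35 ± 0.059 against control). Hoxa13 was 0.753, 0.773 and 0.522 FPKM in control samples, 1.28, 1.11 and 1.14 with full-length NFIA and 0.541, 0.523 and 0.432 with the mutant, and full-length NFIA raised it by 0.37 ± 0.089 on 40, 63 and 33 fragments per group.

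In HoxC at day 7, Hoxc4 was 3.77, 3.39 and 3.48 FPKM in control samples, 2.42, 2.18 and 2.08 with full-length NFIA and 3.48, 2.99 and 2.88 with the mutant. It fell by 0.50 ± 0.081 on the log2 scale with full-length NFIA, and the mutant overlapped control (-0.33 to 0.034). Hoxc5 was 1.08, 1.04 and 1.16 FPKM in control samples, 1.15, 1.39 and 1.6996 with full-length NFIA and 1.39, 1.14 and 1.22 with the mutant and did not pass (adjusted p = 0.0896 with full-length NFIA, limma; 0.0269 without full-length replicate 1 and 0.0381, as higher, with median-ratio scaling). Hoxc6 was 7.505, 7.84 and 8.36 FPKM in control samples, 7.68, 7.71 and 8.47 with full-length NFIA and 9.55, 8.62 and 8.904 with the mutant, with intervals of -0.14 to 0.16 and 0.024 to 0.32. The mutant samples lay above both other groups. Their difference from control passed without control replicate 3 (adjusted p = 0.0439, limma), and that from full-length NFIA passed in 1 of 6 fits without 1 sample (0.0367). Hoxc8 was 1.19, 1.23 and 1.01 FPKM in control samples, 0.794, 0.840 and 0.887 with full-length NFIA and 0.970, 0.885 and 0.763 with the mutant. It passed with full-length NFIA (-0.22 ± 0.082, adjusted p = 0.0349), but this call was lost without control replicate 1, control replicate 2, full-length replicate 1 or full-length replicate 2, at an adjusted p of up to 0.109, and with median-ratio scaling (0.0923) or voom on fragments (0.05995).

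Hoxc9 was 6.797, 6.95 and 7.195 FPKM in control samples, 5.53, 5.93 and 5.55 with full-length NFIA and 7.82, 8.38 and 7.23 with the mutant. Full-length samples were the lowest and mutant samples the highest, so that both constructs differed by 0.40 ± 0.065 (adjusted p = 0.000386, limma). Hoxc10 was 20.5, 20.1 and 20.6 FPKM in control samples, 24.5, 25.3 and 27.9 with full-length NFIA and 20.7, 16.9 and 18.9 with the mutant, and rose with full-length NFIA by 0.33 ± 0.074. Hoxc11 was 10.3, 10.7 and 11.7 FPKM in control samples, 5.71, 4.03 and 4.78 with full-length NFIA and 7.44, 8.87 and 6.91 with the mutant. The 3 groups did not overlap, at -1.04 ± 0.11 (adjusted p = 1.48e-05) and -0.45 ± 0.11 against control. Hoxc12 was 0.389, 0.987 and 0.809 FPKM in control samples, 1.12, 0.288 and 0.935 with full-length NFIA and 0.944, 0.703 and 0.335 with the mutant, on 27, 23 and 27 fragments per group, with an interval of -0.45 to 0.50. Hoxc13 was 8.09, 7.302 and 8.55 FPKM in control samples, 3.39, 3.59 and 3.598 with full-length NFIA and 5.34, 4.98 and 4.94 with the mutant. In contrast to day 0, full-length samples were the lowest, at -0.99 ± 0.069 (adjusted p = 5.2e-07), with the mutant in between at -0.56 ± 0.069.

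Against control cells at day 7, the mutant changed 5 of 20 Hox genes, 2 higher, Hoxa7 among them, and 3 lower, namely Hoxa11, Hoxc11 and Hoxc13 (48.8% of all genes passed, 21.3% higher and 27.5% lower). The median was 0.0073 over the Hox genes and -0.037 over all genes. Without control replicate 1, 3 genes passed. With median-ratio scaling between samples, 5 Hox genes were higher and 3 lower. Against full-length NFIA, 15 genes differed in the mutant, 4 higher and 11 lower (63.7% of all genes passed, 34.3% higher and 29.4% lower). The 11 included 10 of 11 HoxA genes, led by Hoxa9 at -1.15 ± 0.077 and Hoxa6 at -0.98 ± 0.12, and Hoxc10. The 4 were Hoxc4, Hoxc9, Hoxc11 and Hoxc13. Without mutant replicate 1, 4 genes passed against control and 15 against full-length NFIA. The muscle markers summed to 7854 to 8376 FPKM per sample with the mutant at day 7, above the control samples. Single markers went both ways, as 4 of the 8 passed as higher and 2 as lower. Myog was 1275 ± 90.0 FPKM in control cells and 489 ± 124 with the mutant. The mutant samples of day 7 also differed from each other in their adipocyte markers (613 to 2006 FPKM in sum), and the part of either in the Hox values was not tested.

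**Figure D4:**
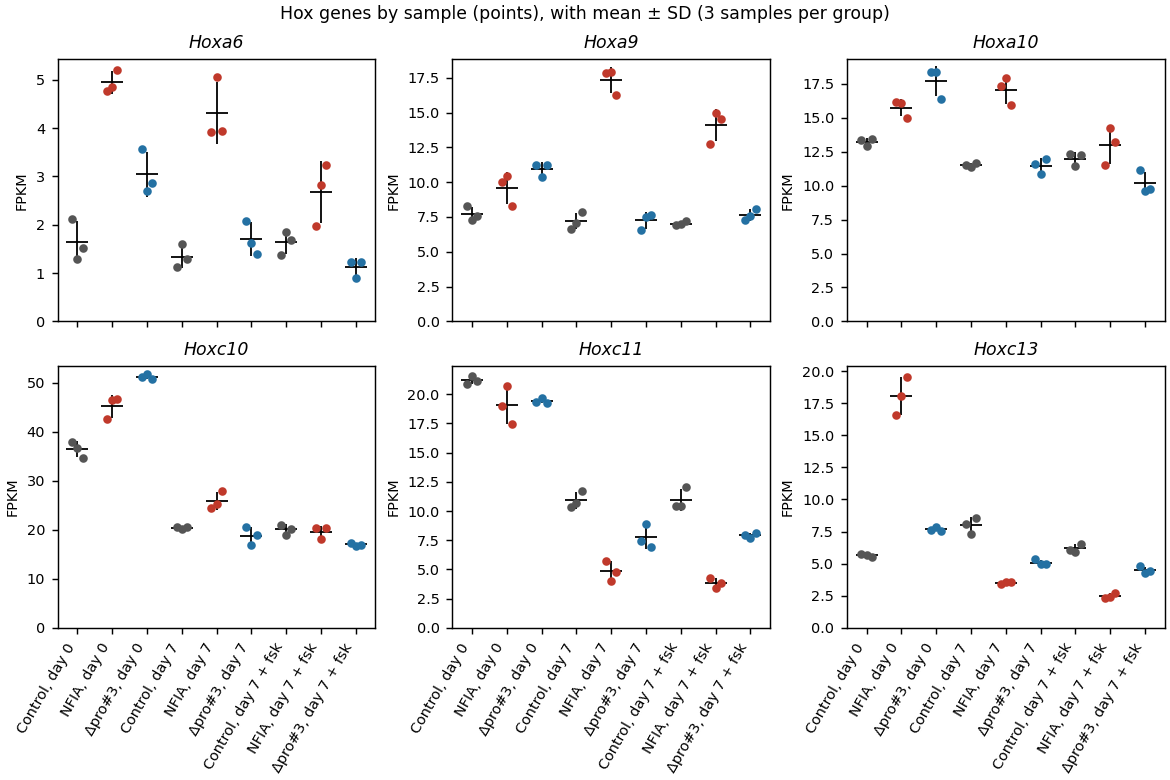
FPKM (vertical axes, from 0) of Hoxa6, Hoxa9, Hoxa10, Hoxc10, Hoxc11 and Hoxc13 in each of the 27 samples as points, with the mean ± SD of each group in black; grey is control, red full-length NFIA and blue the Δpro#3 mutant. Hoxa9 stands at 16.2 FPKM or more in all full-length NFIA samples of day 7, and Hoxc13 is highest in full-length NFIA cells at day 0 (18.1 FPKM on average) and lowest in them after forskolin (2.47).

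In the samples treated with forskolin, which raises cAMP, 11 of 18 Hox genes differed between full-length NFIA and control cells, 5 higher and 6 lower (72.5% of all 12121 genes passed, 25.5% higher and 47% lower). The 5 included Hoxa4, Hoxa5, Hoxa6 and Hoxa9, and the 6 were Hoxa11, Hoxc4, Hoxc6, Hoxc9, Hoxc11 and Hoxc13. Median-ratio scaling moved the median of all genes from -0.17 to -0.0076 here, the split of all calls from 35.2% to 49.7% higher, and that of the Hox genes to 8 higher and 4 lower, with Hoxa3, Hoxa7 and Hoxa10 added and Hoxa11 and Hoxc6 lost. Without full-length replicate 1, 12 passed. The muscle markers here summed to 977 to 1249 FPKM per sample with full-length NFIA and 5580 to 6777 in control cells. The adipocyte markers summed to 12848 to 13554 and 301 to 312, and the part of either in the Hox values was not tested. Hoxa9 was 6.91, 6.97 and 7.19 FPKM in control samples, 12.8, 14.97 and 14.5 with full-length NFIA and 7.28, 7.56 and 8.07 with the mutant, and full-length samples stood above the rest at 0.91 ± 0.070. Hoxc11 was 10.4, 10.4 and 12.03 FPKM in control samples, 4.24, 3.37 and 3.88 with full-length NFIA and 7.98, 7.72 and 8.09 with the mutant, the groups did not overlap, and full-length NFIA was at -1.31 ± 0.082 against control. Hoxc13 was 6.06, 5.93 and 6.56 FPKM in control samples, 2.297, 2.42 and 2.702 with full-length NFIA and 4.81, 4.27 and 4.402 with the mutant, with -1.05 ± 0.074 and -0.39 ± 0.074.

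Of the other HoxA genes after forskolin, Hoxa2 was 0.333, 0.243 and 0.177 FPKM in control samples, 0.653, 0.258 and 0.518 with full-length NFIA and 0.152, 0.468 and 0.488 with the mutant, and it was under the level for testing. Hoxa13 was 0.488, 0.618 and 0.301 FPKM in control samples, 0.365, 0.394 and 0.251 with full-length NFIA and 0.672, 0.545 and 0.211 with the mutant, also under that level. Hoxa3 was 1.31, 1.44 and 1.33 FPKM in control samples, 1.795, 1.46 and 1.86 with full-length NFIA and 1.41, 1.21 and 1.52 with the mutant and did not pass with full-length NFIA (adjusted p = 0.0619, limma). Hoxa4 was 0.475, 0.597 and 0.564 FPKM in control samples, 0.978, 1.04 and 0.986 with full-length NFIA and 0.705, 0.542 and 0.822 with the mutant, higher with full-length NFIA by 0.37 ± 0.085. Hoxa5 was 1.504, 1.29 and 1.34 FPKM in control samples, 2.54, 1.83 and 2.63 with full-length NFIA and 1.33, 1.04 and 1.01 with the mutant, at 0.48 ± 0.11 with full-length NFIA. Hoxa6 was 1.37, 1.85 and 1.69 FPKM in control samples, 1.97, 2.82 and 3.24 with full-length NFIA and 1.23, 0.892 and 1.23 with the mutant, at 0.47 ± 0.13, and full-length samples of both genes lay above the other groups. Hoxa7 was 2.96, 2.79 and 2.62 FPKM in control samples, 3.702, 3.46 and 3.201 with full-length NFIA and 4.68, 3.14 and 3.59 with the mutant, with both constructs above control (adjusted p = 0.0765 with full-length NFIA and 0.0291 with the mutant, limma). Hoxa10 was 12.3, 11.4 and 12.2 FPKM in control samples, 11.5, 14.2 and 13.2 with full-length NFIA and 11.1, 9.64 and 9.79 with the mutant, and mutant samples were the lowest. Hoxa11 was 11.9, 10.4 and 12.4 FPKM in control samples, 10.5, 9.02 and 9.28 with full-length NFIA and 8.98, 8.93 and 8.07 with the mutant, again lowest with the mutant. The fall of Hoxa11 with full-length NFIA (-0.24 ± 0.081) was lost without control replicate 1 or 3 or full-length replicate 2 or 3, at an adjusted p of up to 0.0798.

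Of the other HoxC genes after forskolin, Hoxc4 was 3.53, 3.18 and 3.01 FPKM in control, 2.34, 2.02 and 2.02 in full-length NFIA and 3.07, 2.52 and 2.44 in mutant samples, and full-length samples were lowest (-0.44 ± 0.089). Hoxc6 was 8.72, 7.07 and 8.99 FPKM in control samples, 6.33, 5.35 and 6.03 with full-length NFIA and 6.07, 6.45 and 8.09 with the mutant, at -0.42 ± 0.11 with full-length NFIA. Hoxc9 was 5.93, 6.61 and 5.76 FPKM in control samples, 3.96, 4.42 and 3.901 with full-length NFIA and 7.196, 6.01 and 6.34 with the mutant, at -0.48 ± 0.081, and full-length samples of both genes lay below control. Hoxc5, Hoxc8 and Hoxc12 did not pass with full-length NFIA. Hoxc5 was 0.850, 1.18 and 0.864 FPKM in control samples, 0.924, 1.005 and 1.06 with full-length NFIA and 0.891, 0.762 and 1.12 with the mutant. Hoxc8 was 0.807, 1.05 and 0.930 FPKM in control samples, 0.403, 0.820 and 0.749 with full-length NFIA and 0.628, 0.652 and 0.715 with the mutant. Hoxc12 was 0.864, 0.575 and 0.560 FPKM in control samples, 0.485, 0.542 and 0.390 with full-length NFIA and 0.802, 0.282 and 0.187 with the mutant. Hoxc10 stayed the highest, at 21.1, 19.02 and 20.2 FPKM in control, 20.4, 18.1 and 20.3 in full-length NFIA and 17.4, 16.7 and 16.98 in mutant samples (-0.17 to 0.10 for full-length NFIA). With the mutant, 7 of 18 Hox genes passed against control, 2 higher (Hoxa7 among them) and 5 lower (Hoxa10, Hoxa11, Hoxc10, Hoxc11 and Hoxc13, 46.6% of all genes passed, 19.5% higher and 27.1% lower). Without control replicate 3 only 4 passed, with Hoxa7 and Hoxa10 among those lost (adjusted p of 0.0914 and 0.124, limma). Of the 6 fits without 1 sample, Hoxa10 was lost in 5 (up to 0.145), Hoxa7 in 3 and Hoxc10 in 1, and without mutant replicate 1 the number was 7. Against full-length NFIA 11 genes differed in the mutant, 4 higher and 7 lower (66.2% of all genes passed, 42% higher and 24.2% lower), and with median-ratio scaling 3 higher and 9 lower. The 4 were Hoxc4, Hoxc9, Hoxc11 and Hoxc13, and Hoxc4 was lost in 4 of 6 fits without 1 sample (adjusted p of 0.05003 to 0.145), as was Hoxc10 among the lower genes (0.0502 to 0.0698) and, in 2 fits, Hoxa4 (up to 0.0991). Without 1 sample 8 to 10 passed, and 10 without replicate 1 of either construct. Median-ratio scaling moved the median of all genes from 0.12 to 0.0085 and the share of higher calls from 63.4% to 50.2%.

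From day 0 to day 7 most HoxC genes fell in all 3 kinds of cells, 7 of 9 in control, 9 with full-length NFIA and 8 with the mutant, while the HoxA genes differed between the cells. In control cells 12 of 20 Hox genes changed, 2 higher and 10 lower (78.7% of all 12408 genes passed, 36% higher and 42.7% lower), and with median-ratio scaling 5 higher and 8 lower. Hoxc5 (-0.95 ± 0.087), Hoxc11 (-0.90 ± 0.093) and Hoxc10 (-0.81 ± 0.062) fell most, and Hoxa4 (0.53 ± 0.10) and Hoxc13 (0.43 ± 0.059) rose. The falls of Hoxa5 and Hoxc6 were lost in 3 and 4 of 6 fits without 1 sample (adjusted p of up to 0.0655 and 0.110, limma). With full-length NFIA 16 Hox genes changed, 5 higher and 11 lower (79.7% of all genes passed, 33.2% higher and 46.5% lower). Median-ratio scaling moved the median of all genes from -0.11 to 0.015 and the split of all calls from 41.6% to 51.7% higher, and gave 7 Hox genes higher and 11 lower. Hoxc13 fell by 2.07 ± 0.059 and Hoxc11 by 1.79 ± 0.093 on the log2 scale with full-length NFIA, the 2 Hox genes past 3-fold in FPKM + 1 (10.1% of all genes), against 6 with a pseudocount of 0.1 or with voom on fragments. All 9 HoxC genes fell, while Hoxa4 (1.10 ± 0.10), Hoxa9 (0.80 ± 0.080), Hoxa13 (0.53 ± 0.078) and Hoxa7 (0.33 ± 0.090) were among those that rose. With the mutant 16 changed, 1 higher (Hoxa4, 0.53 ± 0.10) and 15 lower (79.5% of all genes passed, 32.8% higher and 46.7% lower, a median of -0.11 that scaling moved to -0.0013), led by Hoxc10 at -1.40 ± 0.062 and Hoxc11 at -1.23 ± 0.093. Here Hoxa9 fell by 0.54 ± 0.080, and Hoxa10 (-0.59 ± 0.053) and Hoxa3 (-0.72 ± 0.069) fell as well. The call on Hoxc9 was lost in 2 of 6 fits without 1 sample (adjusted p of up to 0.0796) and that on Hoxa2 in 1 (0.058).

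**Figure D5:**
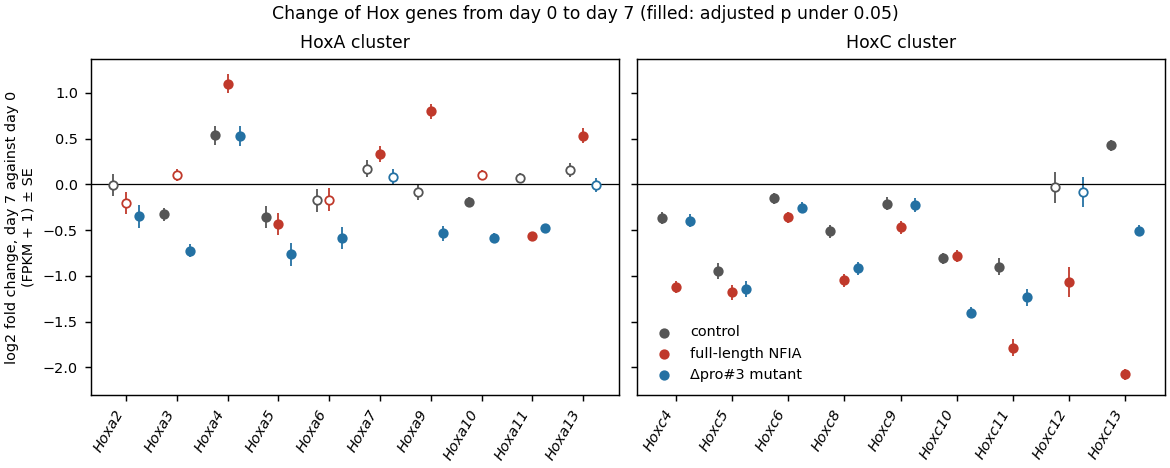
Log2 fold change (FPKM + 1, ± SE from the limma fit) from day 0 to day 7 of expressed Hox genes in chromosomal order, in control (grey), full-length NFIA (red) and Δpro#3 mutant cells (blue), for HoxA (left) and HoxC (right); filled points passed at an adjusted p under 0.05. Most HoxC points are below 0, with Hoxc13 at 0.43 in control cells and -2.07 with full-length NFIA.

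The change over time was then compared between cells directly, as an interaction in the same fit. For full-length NFIA against control, 14 of 20 Hox genes differed, 6 more positive and 8 more negative (71.2% of all genes passed, 31.1% higher and 40.1% lower), and 6 and 6 with median-ratio scaling, which lost Hoxc6 and Hoxc9. Hoxc13 differed most, by -2.50 ± 0.084 (adjusted p = 2.05e-13, limma), and was the 1 Hox gene past 3-fold in FPKM + 1 (7.62% of all genes), against 2 with a pseudocount of 0.1 or with voom on fragments. Hoxc12 (-1.03 ± 0.24), Hoxc11 (-0.89 ± 0.13), Hoxc4 (-0.75 ± 0.097), Hoxa11 (-0.64 ± 0.065) and Hoxc8 (-0.53 ± 0.10) were more negative as well. Those more positive included Hoxa9 (0.88 ± 0.11), Hoxa4 (0.56 ± 0.15), Hoxa3 (0.43 ± 0.097), Hoxa13 (0.38 ± 0.11) and Hoxa10 (0.29 ± 0.075). With voom on fragments 9 passed, and the calls on Hoxa4 and Hoxa13 were among those lost (adjusted p of 0.264 and 0.0778). The calls on Hoxc6 and Hoxc9 were each lost when single samples were left out (8 and 9 of 12 fits). For the mutant against control, 8 Hox genes differed, and all 8 were more negative (44.7% of all genes passed, 18.9% more positive and 25.9% more negative). With median-ratio scaling 7 differed and the share of positive calls among all genes went from 42.2% to 53.1%. The 8 were Hoxc13 (-0.94 ± 0.084), Hoxc10 (-0.59 ± 0.087), Hoxa11 (-0.55 ± 0.065), Hoxa9 (-0.45 ± 0.11), Hoxc8 (-0.40 ± 0.10), Hoxa10 (-0.40 ± 0.075), Hoxa3 (-0.40 ± 0.097) and Hoxc11 (-0.33 ± 0.13), of which Hoxc11 was lost in 10 of 12 fits without 1 sample. Hoxa9 thus differed in opposite directions with both constructs.

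Forskolin changed few Hox genes in control and mutant cells. In control cells Hoxc13 (-0.32 ± 0.068) and Hoxa7 (-0.29 ± 0.098) fell (20.5% of all genes passed, 7.05% higher and 13.5% lower). With median-ratio scaling the 2 calls were 1 higher (Hoxa11) and 1 lower (Hoxc13), and the split of all calls went from 34.3% to 51.7% higher. The call on Hoxa7 was lost in 5 of 6 fits without 1 sample. In mutant cells Hoxc6 (-0.36 ± 0.095) and Hoxc9 (-0.23 ± 0.071) fell (35.8% of all genes passed, 11.9% higher and 23.9% lower). Without forskolin-treated mutant replicate 1 the number was 5, and without replicate 2 it was 1, as the call on Hoxc9 was lost (adjusted p = 0.0966, limma), which it was in 3 of 6 such fits. With full-length NFIA 14 of 20 Hox genes fell and none rose (55.4% of all genes passed, 41.5% lower and 13.9% higher). The median of all genes was -0.15 here and -0.041 after median-ratio scaling, which moved the share of higher calls from 25.03% to 43.9% and left 11 Hox genes lower, without Hoxa9, Hoxc5 and Hoxc11. The calls on Hoxc5 and Hoxc11 were also lost in 3 and 4 of 6 fits without 1 sample (adjusted p of up to 0.139 and 0.1999, limma), while without replicate 1 of the forskolin-treated samples 14 passed. Hoxa3 fell by 0.83 ± 0.077 (adjusted p = 2e-07, limma), the largest change on the log2(FPKM + 1) scale. Hoxa13 (-0.70 ± 0.11), Hoxa7 (-0.62 ± 0.098) and Hoxc13 (-0.38 ± 0.068) were among the others. In FPKM Hoxa13 fell by a larger factor, from 1.18 to 0.337 on 63 and 21 fragments, than Hoxa3, from 3.80 to 1.71.

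Paralogs are genes of the same number in different clusters, and the ratio of a HoxA gene to its HoxC paralog within a sample does not depend on the scaling between samples. This ratio was added after the levels had been seen. With 3 samples against 3, the smallest p-value that an exact permutation test of a pair can give is 0.1. No such count was made over other gene pairs. Hoxa9 to Hoxc9 was 0.981, 1.02 and 1.09 in the control samples of day 7, 3.22, 3.02 and 2.93 with full-length NFIA and 0.841, 0.898 and 1.06 with the mutant. Only the full-length samples stood apart. Hoxa11 to Hoxc11 was 1.03, 0.899 and 0.828 in control samples, 1.78, 2.46 and 2.07 with full-length NFIA and 1.07, 0.858 and 1.05 with the mutant. Hoxa4 to Hoxc4 was 0.250, 0.183 and 0.176 in control samples, 0.619, 0.974 and 0.936 with full-length NFIA and 0.332, 0.279 and 0.282 with the mutant. Of 7 pairs, 6 had all full-length samples above all control samples at day 7, and 1 pair did with the mutant. The 6 were those of groups 4, 6, 9, 10, 11 and 13, and the pair of Hoxa5 and Hoxc5 overlapped. At day 0 all samples lay above control in 4 pairs with full-length NFIA and in 5 with the mutant. The pair of Hoxa13 and Hoxc13 went the other way with both constructs (log2 difference -1.68 with full-length NFIA and -0.42 with the mutant), and Hoxc13 rose there. After forskolin the numbers above control were 5 and 1.

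Genes that work with and on Hox genes were counted in the same way, where 72.4% of all genes passed with full-length NFIA at day 7, 31.3% higher and 41.1% lower. Of 8 TALE cofactors tested at day 7 (Meis, Pbx and Pknox proteins, which bind DNA with Hox proteins), 1 was higher and 3 were lower with full-length NFIA, at a median of -0.015. Meis2 was 6.16 ± 0.274 FPKM in control cells and 3.47 ± 0.655 with full-length NFIA. Of 27 Polycomb genes, which keep Hox genes silent, 6 were higher and 13 lower at a median of -0.13, with Rnf2, an E3 ligase for histone H2A, at 16.6 ± 0.116 against 8.41 ± 0.281 FPKM. Of 16 Trithorax genes, which keep Hox genes active, 6 were higher and 4 lower, with Wdr5, a subunit of histone H3K4 methyltransferases, at 30.9 ± 1.22 against 15.01 ± 0.209 FPKM. Of 9 retinoid and Cdx genes, which act upstream of Hox genes in the embryo, 6 were higher and 3 lower, at a median of 0.64. Aldh1a1, which makes retinoic acid, was 0.0298 ± 0.00890 FPKM in control cells and 21.6 ± 1.64 with full-length NFIA, Crabp1, a retinoic acid binding protein, was listed at 0 in all control samples and 3.76 ± 0.696, and the receptor Rarb was 2.59 ± 0.410 and 0.245 ± 0.0585.

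Other genes of position and of the clusters were measured as well. Of 19 other regional transcription factors tested at day 7, 5 were higher and 6 lower with full-length NFIA (31.3% and 41.1% of all genes), among them Tbx15, a factor of limb and trunk mesenchyme (39.2 ± 1.89 FPKM in control cells and 13.6 ± 0.0730 with full-length NFIA), and Lhx2, a limb factor (0.130 ± 0.0298 and 1.998 ± 0.108). Of 6 noncoding genes of the clusters tested, 3 were higher and 2 lower. Hotair, transcribed from HoxC on the strand opposite to the Hox genes, was 3.41 ± 0.103 FPKM in control cells, 1.84 ± 0.182 with full-length NFIA and 1.898 ± 0.142 with the mutant, and Hotairm1, from HoxA, 5.197 ± 1.37, 8.36 ± 1.99 and 6.18 ± 0.542. Of 25 genes that flank the clusters, 8 were higher and 9 lower, with Snx10, next to HoxA, at 1.78 ± 0.114 and 11.3 ± 0.238 FPKM, Chn1, a gene that fell, at 4.6003 ± 0.170 and 0.750 ± 0.354, and Zfp385a, next to HoxC, at 7.704 ± 0.651 and 15.7 ± 0.194. On the same strand Hoxa2 and Hoxa3 share 267 exon bases in GENCODE vM1, Hoxb7 and Hoxb8 1069 and Hoxd3 and Hoxd4 1725. Hoxc5 shares 449, Hoxa9 198 and Hoxc10 166 with other annotated genes, and fragments there could be missing from these genes.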

How the data were processed

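RNA-seq of polyadenylated RNA (TruSeq stranded libraries) from 27 C2C12 samples was analysed, with group, day and treatment taken from the deposited labels. The authors aligned the reads to mm9 with STAR 2.5.3a, used reads that mapped to 1 place, assigned them by strand and deposited FPKM per gene, with no scaling between samples. The annotation behind the gene lengths is not given in the sources used here. Every FPKM times gene length was a whole multiple of 1 step per sample (100% of values, within 0.05 of a step), which gave fragments per gene.

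Expression was compared with limma 3.58.1 in R 4.3.3 on log2(FPKM + 1), with a trend in the variance, 1 mean per group, and 9 samples per fit within a time point or 18 across 2 time points or treatments, leaving out genes whose mean FPKM was under 0.5. P-values are 2-sided and adjusted by Benjamini-Hochberg over all genes of each of 17 comparisons. Python 3.11.15 and matplotlib 3.10.9 were used for tables and plots.

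The Hox genes were taken by symbol alone. The gene lists and the comparisons were chosen with earlier results of these data known. Hox genes at a mean of 1 FPKM or more in a group were named with all their values, apart from items that are not reported here, other Hox genes by range and count, and list genes only from among the 3 largest called changes per list with full-length NFIA at day 7, apart from Nfia and the marker genes. Alternatives were a pseudocount of 0.1, median-ratio scaling, no filter, a mean FPKM of 5 or more, fits of only the groups compared, no variance trend, the replicate number as a block, voom on the fragments, and leaving out each sample in turn. No values of the other experiments of the study were used here.

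Intervals are at 95%, and limits for a count of 0 take 3 fragments.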

Additional observations from a re-analysis of the deposited data

Results flagged for a closer look

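The change from day 0 to day 7 differed between full-length NFIA and control cells for 14 Hox genes, by the interaction test of limma at an adjusted p-value under 0.05. The positive differences of the log2 fold changes included 0.43 for Hoxa3, 0.56 for Hoxa4, 0.88 for Hoxa9, 0.29 for Hoxa10 and 0.38 for Hoxa13. The negative ones were -0.64 for Hoxa11, -0.75 for Hoxc4, -0.21 for Hoxc6, -0.53 for Hoxc8, -0.26 for Hoxc9, -0.89 for Hoxc11, -1.03 for Hoxc12 and -2.50 for Hoxc13. Between mutant and control cells the change differed for 8 Hox genes, -0.40 for Hoxa3, -0.45 for Hoxa9, -0.40 for Hoxa10, -0.55 for Hoxa11, -0.40 for Hoxc8, -0.59 for Hoxc10, -0.33 for Hoxc11 and -0.94 for Hoxc13. Both comparisons share the control samples. Outlying samples for single genes were not searched for, since groups held 3 samples.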

How the results depend on the processing

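Over all settings no Hox gene that passed the test changed direction. Requiring a mean of 5 FPKM leaves fewer Hox genes to test, and the number passed went to 8 for full-length NFIA, 6 for the mutant against control at day 0, to 6, 3 and 7 for full-length NFIA, the mutant and the mutant against full-length NFIA at day 7, and to 5, 4 and 5 for these after forskolin. From day 0 to day 7 it went to 6 in control, 7 in full-length NFIA and 8 in mutant cells, to 7 for the difference of full-length NFIA from control, and for forskolin to 0 in control cells and 6 with full-length NFIA. The counts past 3-fold rest on the pseudocount. At 0.1 they were 2 for full-length NFIA and 1 for the mutant against it at day 0, 2 for full-length NFIA at day 7, 6 with full-length NFIA and 1 with the mutant from day 0 to day 7, and 2 for the difference of full-length NFIA. With voom on fragments they were 3, 1, 2, 6, 1 and 2 in the same order, and 1 each for full-length NFIA after forskolin, for control cells from day 0 to day 7 and for forskolin with full-length NFIA. Voom also gave 9 passed genes for the difference of full-length NFIA and 1 for forskolin in control cells, where no filter gave 1 as well. Median-ratio scaling gave 8 for the mutant at day 7, and fitting only the groups compared gave 1 for forskolin in mutant cells. Leaving out 1 sample gave 3 to 6 genes for the mutant at day 7, 4 to 7 after forskolin, 1 to 2 for forskolin in control cells and 1 to 5 in mutant cells.

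The replicate number did not pair the samples, since the deviations of same-numbered samples correlated at -0.187 to 0.352 (median 0.0098). With the replicate block, no count of Hox genes moved by more than 1.5 times, and of 365 single values 6 gained and 3 lost the call. Hoxc8 with full-length NFIA at day 7 was among those lost (adjusted p = 0.0548, limma), and Hoxc11 with the mutant at day 0 passed as lower (0.0445). Spearman's rho in place of Pearson's r was 0.983 between control and mutant cells at day 0, 0.943 at day 7 and 0.971 after forskolin, 0.925 between control and full-length NFIA cells after forskolin, and 0.950 and 0.940 between day 0 and day 7 in control and in mutant cells. Depth limits Hoxa2, Hoxa4, Hoxa13 and Hoxc12, which had 365 to 608 fragments over all 27 samples, and the absence of HoxB and HoxD is a statement at this depth.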
